A study of Homo sapiens with 12 samples.

Results

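The miR-548 family was taken as every row of the deposited miRNA table whose mature name begins with hsa-miR-548, which gave 57 of 1520 names. Of these, 33 carried enough reads to be tested and 24 did not. The tested cells had 3 days with DMAG at 40 µg/ml. DMAG is a glucoside of a methylated ellagic acid from the herb Sanguisorba officinalis. For the controls the labels state neither a dose nor a time, nor whether a vehicle was given. All cells were labelled HEL, a human erythroleukaemia line, and each group had 3 small RNA libraries and 3 RNA-Seq libraries.

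MicroRNAs are short RNAs cut from hairpin precursors by DROSHA and DICER1 and loaded onto Argonaute proteins, where bases 2 to 8 of the mature strand, the seed, lead pairing with target mRNAs. The miR-548 family is specific to primates, and its hairpins derive from MADE1, a short mariner-type transposable element with inverted repeats whose copies are scattered over the genome. Because MADE1 is close to a palindrome, the arms of a hairpin, and copies read from opposite strands, can resemble or complement one another. A name in this family may therefore share most of its bases with other names.

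Mature sequences were found in RefSeq (GRCh38.p14) for 41 of the 57 names and for 24 of the 33 tested. The first set shows the 6 names with a sequence whose level changed under DMAG, followed by miR-548o-3p, the most abundant name, and the also abundant miR-548k. Bases are written 5′ to 3′, and capitals mark the seed.
hsa-miR-548ah-3p: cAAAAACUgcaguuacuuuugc
hsa-miR-548p: uAGCAAAAacugcaguuacuuu
hsa-miR-548ag: aAAGGUAAuugugguuucugc
hsa-miR-548t-5p: cAAAAGUGaucgugguuuuug
hsa-miR-548l: aAAAGUAUuugcggguuuuguc
hsa-miR-548g-5p: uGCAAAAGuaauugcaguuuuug
hsa-miR-548o-3p: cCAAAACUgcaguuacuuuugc
hsa-miR-548k: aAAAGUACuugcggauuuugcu
These 8 names carried 8 different seeds. Across the 41 names with a sequence there were 21 seeds, of which 14 occurred in 1 name. The changed names miR-548d-5p, miR-548t-3p, miR-548ap-3p and miR-548ad-5p are named only.

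The second set shows why names in the family are not always separate measurements. Capitals mark the run in which one name is the reverse complement of the other, 21 bases in the first pair and 22 in the second.
hsa-miR-548bc: AAAAACUGUGAUUACUUUUGC
hsa-miR-548f-5p: uGCAAAAGUAAUCACAGUUUUU
hsa-miR-548aq-3p: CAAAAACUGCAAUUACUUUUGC
hsa-miR-548g-5p: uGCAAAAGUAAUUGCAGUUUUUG
The first pair lies on different chromosomes, miR-548bc at chr17:39297457-39297477 (plus strand) and miR-548f-5p at chr10:54607926-54607947 (minus strand). The second pair does too, with miR-548aq-3p at chr3:185767847-185767868 (minus strand) and miR-548g-5p at chr4:147344681-147344703 (minus strand).

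Total miRNA counts per small RNA library ran from 4303596 to 6003077. A count of 0 therefore allowed a level of up to 0.489 to 0.657 CPM (counts scaled to a common library total; 3 counts, counting error only). Levels below are CPM after TMM scaling, which corrects for a few abundant miRNAs taking a larger share of the reads. The most abundant row of the table, hsa-miR-21-5p, held 11.0%, 10.6% and 10.6% of DMAG counts, against 7.47%, 7.17% and 7.14% of control counts. Marker genes did not match the cell label: of 13 erythroid and megakaryocyte genes, 12 were under 1 FPKM in every RNA-Seq library other than DMAG replicate 3, the exception being NFE2. Their summed level was 12.9, 13.5 and 589 FPKM in DMAG libraries, against 5.06, 4.99 and 3.93 FPKM in controls. Most of it came from NFE2 in DMAG replicates 1 and 2 (12.0 and 13.0 FPKM) and in controls (4.34, 4.17 and 3.35 FPKM). HBA1, an alpha globin, alone reached 375 FPKM in DMAG replicate 3. The red cell miRNA hsa-miR-451a did not single out that sample number in small RNA, with 70, 30 and 75 counts in DMAG libraries and 82, 162 and 75 in controls. The granulocyte gene MPO (myeloperoxidase) was abundant, at 815 ± 82.9 FPKM with DMAG and 1089 ± 29.1 FPKM in controls (SD, n = 3 each). Other granulocyte and monocyte genes examined differed in level and direction. PRTN3 averaged 227 FPKM with DMAG and 916 FPKM in controls, and ELANE and CTSG, both less abundant, were also lower with DMAG. LYZ was higher, averaging 444 FPKM with DMAG and 168 FPKM in controls. CD14 was scarce, averaging 0.428 FPKM with DMAG and 0.114 FPKM in controls. The part these marker levels play in the miR-548 values was not tested, and in such bulk samples fewer cells of a type and less RNA per cell cannot be told apart.

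The family was a small and unevenly divided part of the miRNA pool. It took 0.138%, 0.140% and 0.139% of miRNA counts in DMAG libraries, against 0.162%, 0.152% and 0.161% in controls. Every DMAG library lay below every control library, and the 95% exact binomial intervals of the 2 groups, which cover counting error only, reached up to 0.143% with DMAG and down to 0.149% in controls. These shares and intervals count miR-548bc and miR-548f-5p, which have equal counts, under both names. With those reads under 1 name, the shares were 0.131%, 0.133% and 0.132% in DMAG libraries, against 0.155%, 0.145% and 0.153% in controls. The mean difference was -0.0191 percentage points on plain totals, but on TMM-scaled totals the direction turned, with a summed level of 1491 ± 29.6 CPM with DMAG and 1482 ± 119 CPM in controls (SD, n = 3 each). The share of the family relative to other miRNAs thus depends on whether the larger share taken by abundant miRNAs is corrected for. Between 48 and 51 of the 57 names were detected in each DMAG library, and between 46 and 49 in each control library.

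Of the 33 tested names, 10 passed an adjusted p of 0.05 in edgeR's quasi-likelihood test, 2 higher and 8 lower with DMAG. This was 30.3% of the tested names, while 45.3% of all 583 tested miRNAs passed. By direction, 6.06% of the family and 21.4% of all tested miRNAs were higher, and 24.2% of the family and 23.8% of all were lower. The log2 changes had a median of -0.16 over the family and -0.08 over all tested miRNAs. Groups did not overlap for 19 of the 33 names (57.6%), and for 55.6% of all tested miRNAs. The share of lower names was thus near the background, and the share of higher names below it. The family held many scarce names, 16 of the 33 averaging under 10 CPM, and 4 of the 10 that passed were among these.

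**Figure D1:**
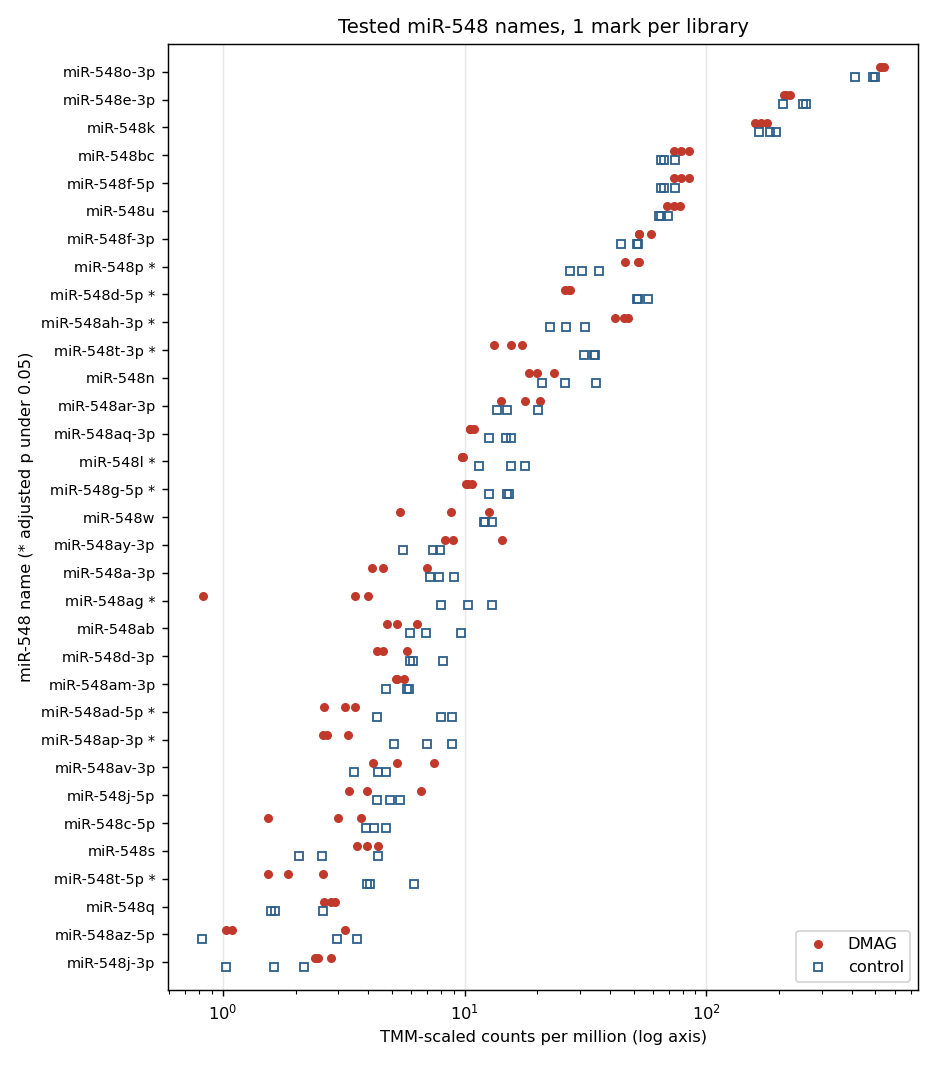
Level of each tested miR-548 name in every small RNA library, in TMM-scaled CPM on a log axis, with red circles for the 3 DMAG libraries and open blue squares for the 3 control libraries. Names run from the most abundant (miR-548o-3p, 523 to 544 CPM with DMAG) down, and asterisks mark the 10 names with an adjusted p under 0.05.

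The names that rose were miR-548ah-3p and miR-548p, which share a run of 19 bases although their seeds differ. For miR-548ah-3p the level was 45.5, 42.1 and 47.2 CPM in DMAG libraries, against 26.2, 22.6 and 31.5 CPM in controls. For miR-548p it was 52.6, 46.0 and 52.0 CPM in DMAG libraries, against 30.5, 27.2 and 36.0 CPM in controls. In both, each DMAG library was above each control, and control replicate 3 was the highest of the controls. The rise was 1.67-fold for miR-548ah-3p (log2 0.74, SE 0.14, edgeR adjusted p = 0.0011) and 1.60-fold for miR-548p (log2 0.68, SE 0.13, edgeR adjusted p = 0.0013). The ratio of miR-548ah-3p to miR-548p counts stayed between 0.833 and 0.914 over the 6 libraries, so the counts of the pair kept nearly the same proportion.

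Close relatives of this pair did not pass the test. Capitals below mark the 19 bases that the pair and its nearest relative hold.
hsa-miR-548ah-3p: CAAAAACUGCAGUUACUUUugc
hsa-miR-548p: uagCAAAAACUGCAGUUACUUU
hsa-miR-548am-3p: CAAAAACUGCAGUUACUUUugu
The first 21 of the 22 bases of miR-548ah-3p and miR-548am-3p are the same, as is their seed. For miR-548am-3p the level was 5.18, 5.26 and 5.59 CPM in DMAG libraries and 4.73, 5.76 and 5.87 CPM in controls, and the groups overlapped (log2 -0.03, SE 0.25, edgeR adjusted p = 0.94). Sharing 20 bases with miR-548ah-3p, miR-548av-3p had 4.19, 5.26 and 7.45 CPM in DMAG libraries and 4.73, 3.50 and 4.40 CPM in controls, with groups that overlapped (log2 0.41, SE 0.30, edgeR adjusted p = 0.29). The abundant miR-548o-3p, described below, also shares 20 bases and had a log2 change of 0.19. Differences between these names' changes were not tested, and miR-548am-3p was supported by 165 counts over all libraries, against 1084 for miR-548ah-3p. How reads that match several of these names were assigned is not given in the sources used here.

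Among the names that fell, miR-548d-5p and miR-548t-3p were the most abundant. For miR-548d-5p the level was 25.9, 27.4 and 27.1 CPM in DMAG libraries, against 51.6, 57.4 and 52.3 CPM in controls. For miR-548t-3p it was 15.6, 17.3 and 13.2 CPM in DMAG libraries, against 34.7, 31.3 and 34.4 CPM in controls. Both groups were tight and well apart: miR-548d-5p was 2.00-fold lower (log2 -1.0, SE 0.11, edgeR adjusted p = 2.1e-05) and miR-548t-3p 2.18-fold lower (log2 -1.12, SE 0.14, edgeR adjusted p = 6.1e-05).

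The largest fall was in a scarcer name, miR-548ag, whose 2 copies lie at chr4:60922623-60922643 and chr20:60564565-60564585 (both plus strand), outside the span of any protein-coding gene. It had 20, 16 and 4 counts in DMAG libraries, against 66, 50 and 49 in controls. On the scaled level this was 3.99, 3.51 and 0.828 CPM with DMAG and 13.0, 10.3 and 7.99 CPM in controls. No libraries overlapped, and DMAG replicate 3 was well below the other DMAG libraries. The fitted fall was 3.71-fold (log2 -1.89, SE 0.40, edgeR adjusted p = 0.0029).

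A further 3 names, each under 10 CPM on average, also fell. Counts of miR-548ap-3p were 13, 15 and 13 in DMAG libraries, against 26, 43 and 43 in controls (log2 -1.29, SE 0.30, edgeR adjusted p = 0.0053). Counts of miR-548ad-5p were 16, 12 and 17 in DMAG libraries, against 22, 43 and 49 in controls (log2 -1.17, SE 0.33, edgeR adjusted p = 0.013). Control replicate 1 was the lowest control for both names, though still above each DMAG library. The counts of miR-548ap-3p and miR-548ad-5p differed by at most 6 in any library. No sequence was found for either, so whether they share reads was not tested, and their falls may not be separate. Counts of miR-548t-5p were 13, 7 and 9 in DMAG libraries, against 20, 30 and 25 in controls (log2 -1.22, SE 0.35, edgeR adjusted p = 0.016). The call of miR-548ad-5p was lost without DMAG replicate 2 and without control replicate 2 (edgeR adjusted p up to 0.056). That of miR-548t-5p was lost without DMAG replicate 2, DMAG replicate 3 or control replicate 2, each left out alone (edgeR adjusted p up to 0.073).

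The smallest falls, in miR-548l and miR-548g-5p, were near the threshold. The level of miR-548l was 9.77, 9.86 and 9.73 CPM in DMAG libraries, against 15.6, 11.5 and 17.8 CPM in controls (log2 -0.62, SE 0.20, edgeR adjusted p = 0.027). That of miR-548g-5p was 10.8, 10.3 and 10.1 CPM in DMAG libraries, against 12.6, 15.0 and 15.3 CPM in controls (log2 -0.46, SE 0.17, edgeR adjusted p = 0.0499). Groups did not overlap for either, and the controls spread more widely than the DMAG libraries. Across 13 other settings, miR-548l lost its call in 8 and miR-548g-5p in 11, with adjusted p up to 0.16 and 0.22, whereas miR-548ah-3p, miR-548p, miR-548d-5p, miR-548t-3p, miR-548ag and miR-548ap-3p kept theirs in all 13.

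**Figure D2:**
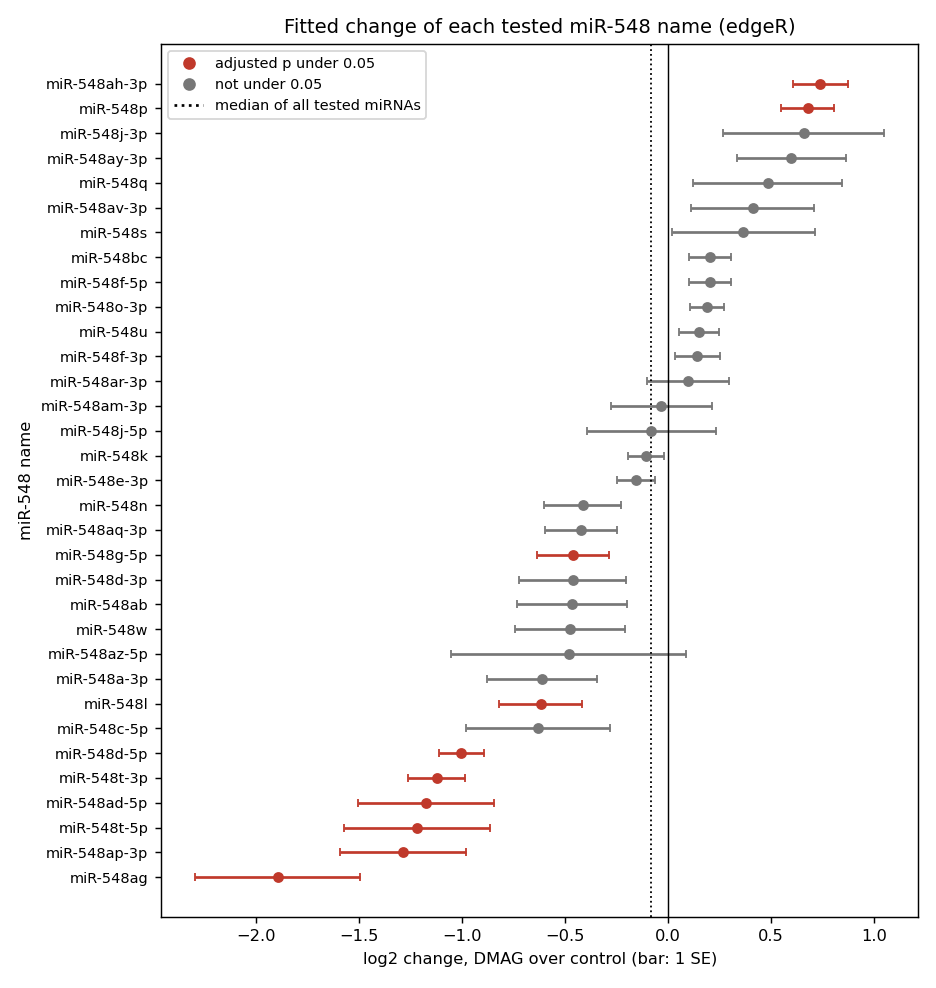
Fitted log2 change of each tested miR-548 name, DMAG over control, with bars of 1 SE from edgeR. Red points passed an adjusted p of 0.05 and grey points did not, and the dotted line is the median of all tested miRNAs (-0.08). Values run from 0.74 for miR-548ah-3p to -1.89 for miR-548ag.

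The 7 most abundant names did not pass edgeR's test with TMM scaling. miR-548o-3p led the family with 544, 523 and 529 CPM in DMAG libraries, against 496, 413 and 491 CPM in controls. Its groups did not overlap, but the 1.14-fold higher mean missed the threshold (log2 0.19, SE 0.08, edgeR adjusted p = 0.078). That adjusted p was 0.039 with upper-quartile scaling, 0.031 with DESeq2 and 0.012 without control replicate 3, and with no scaling beyond the column totals the change was -0.00.

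The next names were miR-548e-3p, with 214, 221 and 209 CPM in DMAG libraries and 258, 207 and 251 CPM in controls, and miR-548k, with 168, 177 and 159 CPM in DMAG libraries and 183, 165 and 195 CPM in controls. Control replicate 2 was the lowest control in each, and the groups overlapped (log2 -0.16, SE 0.09, and log2 -0.11, SE 0.09, in that order). With miR-548o-3p these names made up 61.3% ± 0.435 of family counts with DMAG and 59.7% ± 1.60 in controls (SD, n = 3 each).

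miR-548u had 73.6, 69.0 and 77.4 CPM in DMAG libraries and 69.3, 65.0 and 63.9 CPM in controls, with an overlap at DMAG replicate 2 and control replicate 1 (log2 0.15, SE 0.10). miR-548f-3p had 52.6, 58.9 and 52.4 CPM in DMAG libraries and 51.4, 44.4 and 52.3 CPM in controls, barely apart (log2 0.14, SE 0.11). Of the 23 tested names that did not pass, 11 had the higher mean with DMAG and 12 the lower, and 9 had groups that did not overlap.

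Arms of a hairpin could be set side by side for a few letters. Both arms of miR-548t fell (log2 -1.12 for the 3p and -1.22 for the 5p arm). Of miR-548d, the 5p arm fell, and the scarcer 3p arm had 5.78, 4.60 and 4.35 CPM in DMAG libraries against 6.11, 5.97 and 8.15 CPM in controls. DMAG replicate 1 was just under the lowest control, and the 3p arm missed the threshold (log2 -0.46, SE 0.26, edgeR adjusted p = 0.17). Of miR-548j neither arm passed, and the changes had opposite signs (log2 0.66, SE 0.39, for the 3p and -0.08, SE 0.31, for the 5p arm). Neither arm of miR-548f passed (log2 0.14 for the 3p and 0.20 for the 5p arm). The miR-548f-5p counts are also those of miR-548bc. The other arm of miR-548ap had at most 2 counts in any library and was not tested.

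The 24 names not tested were at 13 counts or fewer in every library. Their sums over the 6 libraries ran from 1 to 55 counts, and 16 of them were at 0 in at least 1 library. The count filter kept them out of the main test. Under looser count filters none of them passed in edgeR, and at such low counts a change could be missed.

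The reverse-complement pairs shown above had equal or almost equal counts. miR-548bc and miR-548f-5p each had 425, 357 and 355 counts in DMAG libraries and 338, 314 and 454 in controls, identical in every library. The single profile was 78.8 ± 5.65 CPM with DMAG and 68.4 ± 4.96 CPM in controls (SD, n = 3 each), with groups that overlapped (log2 0.20, SE 0.10, edgeR adjusted p = 0.12). It is 1 measurement under 2 names, and from the table it cannot be told which locus the reads came from.

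In the other pair, miR-548aq-3p had 55, 48 and 51 counts in DMAG libraries and 64, 72 and 95 in controls, and miR-548g-5p had 54, 47 and 49 in DMAG libraries and 64, 73 and 94 in controls. The names differed by at most 2 counts in any library, yet they fell on different sides of the threshold (edgeR adjusted p = 0.067 for miR-548aq-3p and 0.0499 for miR-548g-5p). The call of miR-548g-5p thus rests on a few reads, and its counts nearly equal those of a name of complementary sequence. Its mature sequence is also that of miR-548aj-5p and miR-548x-5p in RefSeq.

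Such equality was not confined to the family. Over the table, 21 pairs of names with at least 50 summed counts each were reverse complements over 20 bases or more, and in 14 of them the summed difference over libraries was within 5% of the larger total. Both miR-548 pairs were among these, as were 12 of the 19 other pairs. Of all 182710 pairs of rows at that count, 37 were that close.

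**Figure D3:**
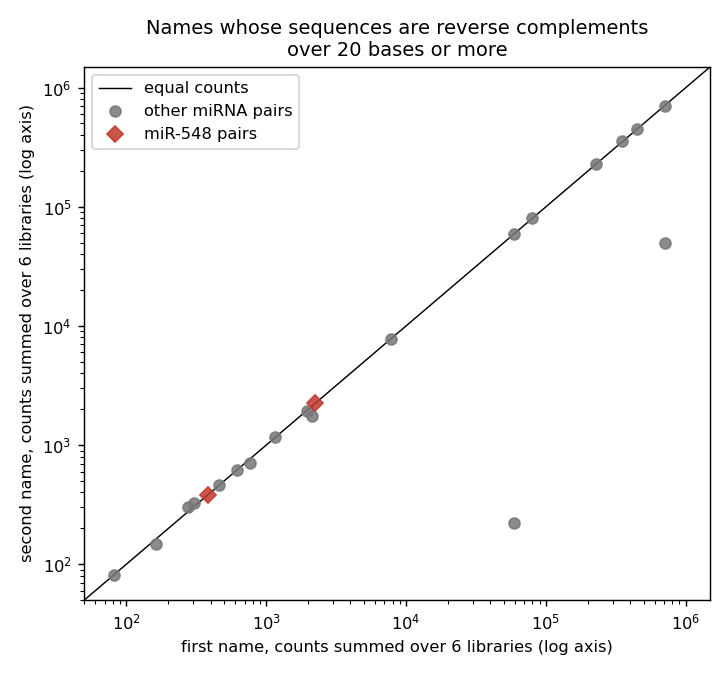
Counts summed over the 6 libraries for the 21 pairs of miRNA names whose mature sequences are reverse complements over 20 bases or more, with both axes logarithmic. Red diamonds are the 2 miR-548 pairs, grey circles the 19 other pairs, and the line marks equal counts. Both diamonds lie on the line, at 2243 counts for each name of one pair and at 385 and 381 counts for the other.

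A short motif divided much of the family into names holding UUACUUU and names holding its reverse complement AAAGUAA. The first motif was in 15 of the 41 names with a sequence (36.6%) and the second in 13 (31.7%), against 1.36% and 1.12% of all names in the table with a sequence, and no member held both. Those shares of all names include the family, which makes up most of the 17 and 14 names behind them. Outside the family, 3 names with a sequence (0.25%) held either motif. Only the given strand of the mature RNA was searched, and the motifs do not overlap each other. Of the 10 tested names with UUACUUU, 2 were higher and 0 lower, with a median log2 change of 0.20. Of the 7 with AAAGUAA, 0 were higher and 1 lower, with a median of -0.41. The 7 tested names with neither included 3 that were lower, and the 9 tested names without a sequence included 4. Since names within a class share sequence, and each pair above spans both classes, these counts are a description only.

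Seeds could be read only for the 41 names with a sequence. The 16 names without one, of which 9 were tested and 4 were lower, are in no seed group and could belong to any. Among names with a sequence, the largest group was AAAGUAA with 9 names, of which 3 were tested and none passed in edgeR (unadjusted p under 0.05 in 0, and 0 passed with DESeq2). Without DMAG replicate 3, miR-548w of this group did pass (log2 -0.81, edgeR adjusted p = 0.036). The summed level of the group was 20.7 ± 1.82 CPM with DMAG and 27.3 ± 2.34 CPM in controls (SD, n = 3 each). The next was AAAAACU with 7 names, of which 4 were tested and miR-548ah-3p alone passed. Its summed level was 64.4 ± 3.10 CPM with DMAG and 48.8 ± 4.98 CPM in controls (SD, n = 3 each), most of it from miR-548ah-3p.

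Many miR-548 copies lie inside genes. Of 50 positions of mature names with a sequence, 37 fell within the span of a protein-coding gene in RefSeq. Both arms of a hairpin are counted where both have a sequence, so these are not all separate copies. Whether they lie in an exon or an intron was not analysed here. For 11 tested names with a single locus, the mRNA of the surrounding gene could be tested on log2(FPKM + 1) with limma, a scale that understates the change of low genes. These covered 10 genes, of which 4 were higher, 2 lower and 4 did not pass, while 48.6% of all 10394 tested genes passed. Of the names, 10 lie on the same strand as the gene and 1, miR-548bc within FBXL20, on the other. The counts of miR-548bc are also those of miR-548f-5p, so its reads cannot be assigned to that locus. RNA-Seq and small RNA came from different libraries.

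In 2 of the 11 names, both the miRNA and its surrounding gene passed in the same direction. Over all tested genes 22.4% were higher and 26.1% lower, and whether such matches exceed the background was not tested. miR-548p lies at chr5:100816498-100816519 (minus strand) within ST8SIA4, which encodes a polysialyltransferase and is read from the same strand. ST8SIA4 mRNA was at 16.4 ± 0.640 FPKM with DMAG and 10.5 ± 0.0931 FPKM in controls (SD, n = 3 each). Its log2 change was 0.60 (SE 0.045, limma adjusted p = 0.00019), close to the 0.68 of miR-548p. However, miR-548p counts kept nearly the same proportion to those of miR-548ah-3p, which lies in another gene. Which locus the reads of either name came from was not tested. miR-548t lies at chr4:173268169-173268189 (plus strand, position of the 5p arm) within GALNT7, which encodes an enzyme of mucin-type O-glycosylation on the same strand. GALNT7 mRNA was at 25.6 ± 0.479 FPKM with DMAG and 31.2 ± 0.777 FPKM in controls (SD, n = 3 each; log2 -0.28, SE 0.04, limma adjusted p = 0.0015), a smaller fall than the -1.22 of miR-548t-5p.

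Among other names, the log2 changes of miRNA and gene were close in some and differed in others. For miR-548s and its surrounding gene LPIN1 they were 0.37 (SE 0.35) and 0.34 (SE 0.05), though only LPIN1 passed. For miR-548k and PPFIA1 they were -0.11 (SE 0.09) and -0.05 (SE 0.09), and neither passed. In the names that follow, the gene was listed at 0, or its change differed in size or sign. miR-548ah-3p, at chr4:76575597-76575618 (plus strand), lies within SHROOM3, an actin-binding protein gene on the same strand whose mRNA was listed at 0 in all 6 RNA-Seq libraries. miR-548l, at chr11:94466545-94466566 (minus strand), lies within MRE11, a nuclease of DNA break repair, whose log2 change was -0.11 (limma adjusted p = 0.14). CDC16, a subunit of the anaphase-promoting complex around miR-548ar-3p, fell to 24.3 ± 0.0786 FPKM with DMAG, against 33.5 ± 0.761 FPKM in controls (SD, n = 3 each), while miR-548ar-3p had a log2 change of 0.10 with SE 0.20. Including SHROOM3, 6 of the 18 single-locus tested names within a gene had a surrounding gene listed under 0.05 FPKM on average in both groups. Among them are miR-548f-5p and miR-548aq-3p, whose counts equal or nearly equal those of names at other loci, so their reads may not come from those genes.

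**Figure D4:**
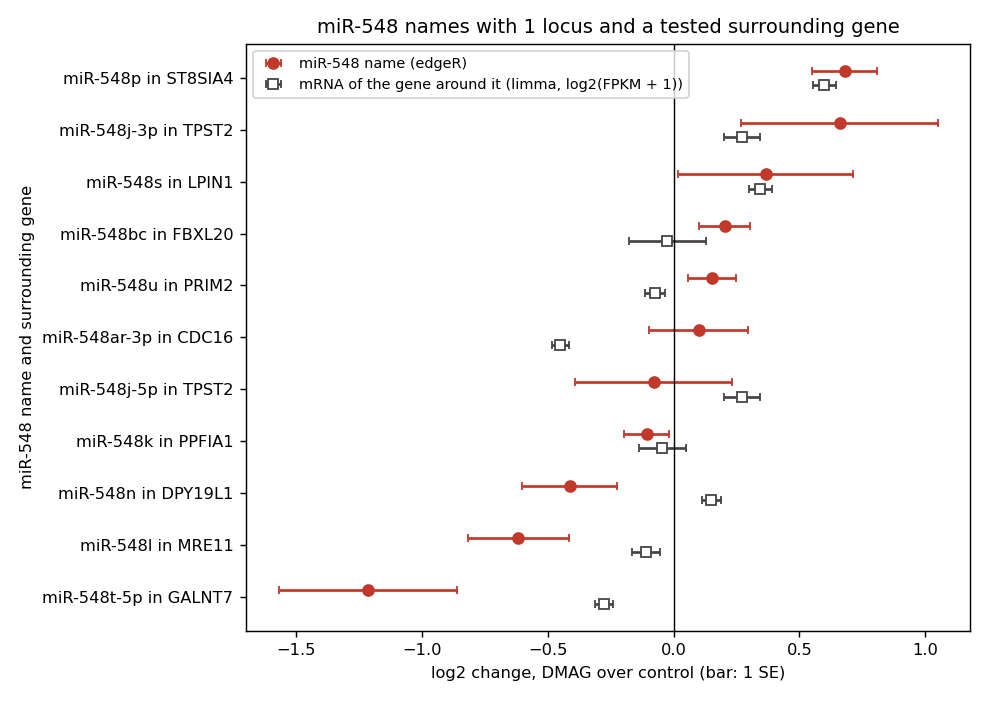
Log2 change, DMAG over control, of the 11 tested miR-548 names with a single locus and a tested surrounding gene (red circles, edgeR) and of the mRNA of the gene around each (open squares, limma on log2(FPKM + 1)), with bars of 1 SE. miR-548p and ST8SIA4 sit together at 0.68 and 0.60, and miR-548t-5p at -1.22 is far left of GALNT7 at -0.28.

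Genes that make, load and degrade miRNAs were examined as a list of 30, of which 29 were tested and LIN28B was listed at 0. Of these, 4 were higher with DMAG and 11 lower (limma adjusted p under 0.05), while over all tested genes 22.4% were higher and 26.1% lower. The log2 changes had a median of -0.00 over the list and -0.01 over all tested genes. The 4 genes with the smallest p were XPO5, SND1, TENT2 and MOV10. XPO5, the exportin that carries hairpin precursors to the cytoplasm, was at 30.2 ± 1.3 FPKM with DMAG and 42.9 ± 0.527 FPKM in controls (SD, n = 3 each; log2 -0.49, SE 0.04, limma adjusted p = 0.00027). SND1, a nuclease found in silencing complexes, was at 78.8 ± 1.89 FPKM with DMAG and 101 ± 0.932 FPKM in controls (SD, n = 3 each; log2 -0.35, limma adjusted p = 0.00037). TENT2, which adds nucleotides to miRNA ends, was at 13.4 ± 0.474 FPKM with DMAG and 18.2 ± 0.352 FPKM in controls (SD, n = 3 each; log2 -0.41, limma adjusted p = 0.00061). MOV10, a helicase bound to Argonaute, rose to 8.90 ± 0.287 FPKM with DMAG, against 6.65 ± 0.0570 FPKM in controls (SD, n = 3 each; log2 0.37, limma adjusted p = 0.0013). DROSHA, DGCR8, DICER1, TARBP2 and AGO2, which cut, partner or carry the hairpin products, were also lower, and AGO4, TNRC6B and TNRC6C higher, all by less than XPO5 on the log2 scale. The calls of DROSHA and DICER1 were lost without control replicate 2 and without control replicate 3, each left out alone (limma adjusted p up to 0.051 for DROSHA and 0.055 for DICER1).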

How the data were processed

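The authors deposited miRNA read counts and TPM per mature name, and FPKM (fragments scaled to length and library total) per mRNA transcript. Deposited TPM was the same as CPM over the column total (largest difference 4.2e-10) and was not used. Tools listed in the submitters' processing notes, without roles, are Bowtie, HISAT2 2.0.4 and StringTie 1.3.3, with build GRCh38. The rule by which small RNA reads were counted, including strand and multiple matches, is not given in the sources used here. Per the labels' protocols, RNA-Seq used RNA depleted of ribosomal RNA and small RNA libraries were made by adapter ligation. The depth behind FPKM is unknown.

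All miRNA counts were tested with edgeR 4.0.16 (R 4.3.3; quasi-likelihood test after TMM scaling and the filterByExpr filter at a minimum count of 10), which left 583 names, and the miR-548 rows were then read out. A count of 0 allows 3 counts. The SE is the log2 change divided by the square root of F. FPKM were summed per gene, and the 10394 genes averaging 0.5 FPKM or more were tested with limma 3.58.1 on log2(FPKM + 1) with a mean trend. P-values were adjusted by Benjamini-Hochberg over all features tested and called under 0.05. Alternatives included DESeq2 1.42.0, other scalings and filters, a block for the replicate number, and omission of each library in turn. Both tests were checked on simulated data with known changes.

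Sequences and positions were matched by name to RefSeq tables of GRCh38.p14, which held 1253 of the 1520 names (82.4%). The members and lists were chosen with earlier results of these data known. Values per library are given for names that passed, the 8 most abundant, the largest changes, and their other arms and equal names; up to 4 pathway genes with the smallest p were named by rule, and the other genes named were chosen after their values were seen. Nothing in the labels states that replicates were separate cultures; p-values therefore reflect the spread among these samples alone, which may be technical.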

Additional observations from a re-analysis of the deposited data

How the results depend on the processing

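The number of miR-548 names that passed was 10, and 16 (2 higher, 14 lower) with no scaling beyond the column totals, a setting that moved the median log2 change of all tested miRNAs to -0.28, against -0.08 with TMM. Counted as distinct profiles it was also 16 there. Upper-quartile scaling gave 10 (4 higher, 6 lower), DESeq2 9 (3 higher, 6 lower), and either looser filter 9. Leaving out each library gave 7 to 11 names (7 to 10 profiles), 202 to 259 of all miRNAs and 12 to 16 of the pathway genes. Over all miRNAs, 125 were higher and 139 lower with TMM, 79 and 207 with no scaling, 142 and 87 with upper-quartile scaling, and 131 and 96 with DESeq2. The family's share differed by 0.000976 percentage points on TMM-scaled totals, and by -0.0221 to -0.0173 with a library left out. With no scaling beyond totals, the change of miR-548f-3p was -0.0493, of miR-548u -0.0461 and of miR-548o-3p -0.0039, and that of miR-548k ran from -0.141 to 0.0439 with a library left out, above 0 only without control replicate 3; the cause was not tested. None of the 10 names that passed changed sign in the 13 alternatives, and their median log2 change was -1.06, and -1.26 to -0.95 over the alternatives. Of the names that had not passed, 11 passed in at least 1 alternative. With the replicate number as a block, 8 names passed, 247 of all miRNAs and 16 pathway genes. In small RNA, deviations of same-numbered libraries correlated at -0.0058, 0.023 and 0.0064, which shows no pairing by number but cannot exclude it. This correlation was not computed for RNA-Seq. There the pathway gene RAN had a limma adjusted p of 0.43 without the block and 0.010 with it.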
